A study of Mus musculus with 24 samples.

Results

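The genes described here are 41 genes of protein folding and secretion in the endoplasmic reticulum, the compartment in which secreted and membrane proteins enter the secretory pathway. They were taken from a list of gene symbols that was chosen with earlier results of these data known. Each gene was read at the probe set annotated to its symbol alone, and where a gene had several, at the one with the highest mean intensity over all arrays. All 41 genes were measured and all 41 exceeded the filter on dim probe sets, out of 12394 genes on the array with a probe set of 1 symbol and 9431 genes tested. RNA came from the ventral prostate, a lobe of the mouse prostate with secretory luminal cells that contribute to semen, and was hybridised to 24 Affymetrix arrays. There were 6 groups of 4 biological replicates, the inbred strains C57BL/6, BALB/c, FVB, 129X1, SWR and AKR. The mice of all groups were wild type, 8 weeks old, untreated and fed a standard diet. By its title, the series looked for modifiers of cancer through expression in parental strains. The comparisons therefore ask which of these genes differed among the strains and which strain carried the difference.

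New secretory proteins are threaded into the endoplasmic reticulum through the Sec61 channel, trimmed of their signal peptide, glycosylated, folded by chaperones and cross-linked by disulfide isomerases. Proteins that fail to fold are drawn back out and degraded. When unfolded proteins build up, the membrane sensors Ern1 (IRE1), Eif2ak3 (PERK) and Atf6 start the unfolded protein response, in which the transcription factors Xbp1, Atf6 and Atf4 raise the transcription of chaperone, translocation and degradation genes. Secretory gland cells such as those of the prostate carry a large amount of this machinery, and the transcription factor Bhlha15 (Mist1) is known for maintaining the secretory apparatus of exocrine cells.

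Many chaperone promoters carry the endoplasmic reticulum stress response element (ERSE), in which the factor NF-Y binds CCAAT and Atf6 or Xbp1 binds CCACG. The element was searched as CCAAT, any 9 bases, CCACG on both strands of the RefSeq promoter windows of GRCm38.p6, which run from 250 bases before to 50 bases after each gene's start. The sequences are those of the C57BL/6J reference, so differences in sequence among the 6 strains were not analysed here. The sites below are printed because 9 of the genes share this element, with CCAAT and CCACG in capitals, or their reverse complements ATTGG and CGTGG where the element lies in the other orientation. All are written 5′ to 3′ on the strand of the gene. Hsp90b1 had 2 elements, and its stretch of 136 bases on the minus strand of chr10:86705527-86705662, from 218 to 83 bases before the start, holds both.
Hsp90b1: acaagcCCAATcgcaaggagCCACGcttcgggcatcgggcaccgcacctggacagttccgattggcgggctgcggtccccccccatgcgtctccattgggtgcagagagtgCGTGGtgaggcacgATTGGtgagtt
Hspa5, plus strand, chr2:34772019-34772049: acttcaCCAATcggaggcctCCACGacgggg
Calr, minus strand, chr8:84847069-84847099: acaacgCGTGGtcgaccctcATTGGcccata
Canx, minus strand, chr11:50325794-50325824: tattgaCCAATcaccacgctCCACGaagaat
Creld2, plus strand, chr15:88819514-88819544: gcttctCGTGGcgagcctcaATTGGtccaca
Pdia6, plus strand, chr12:17266485-17266515: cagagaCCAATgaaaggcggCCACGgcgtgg
Dnajc3, plus strand, chr14:118937821-118937851: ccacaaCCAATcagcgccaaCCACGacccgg
Derl3, plus strand, chr10:75893236-75893266: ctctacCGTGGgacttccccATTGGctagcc
Syvn1, plus strand, chr19:6046526-6046556: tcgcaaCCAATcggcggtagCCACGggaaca

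A promoter window was given for 35 of the 41 genes, and 9 of the 35 (25.7%) held an ERSE. Over all genes with a window the share was 37 of 27025 (0.137%). The second form of the element, ERSE-II, was searched as ATTGG, any base, CCACG. It was found in 2 of the 35 windows (5.71%), those of Dnajb11 and Herpud1, against 12 of all windows (0.0444%). The Herpud1 site is shown because, at the probe sets used, Herpud1 was the 1 gene of translocation, folding or degradation called lower in BALB/c. It is printed with both parts of the element in capitals on the plus strand of chr8:94386371-94386393.
Herpud1: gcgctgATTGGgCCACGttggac
The core TGACGTGG, which Xbp1 and Atf6 also bind, was found in 1 window, that of the disulfide isomerase Txndc5 (2.86%, against 0.714% of all windows). The short words alone were common: CCAAT was in 80% of the windows of these genes and 41.1% of all windows, and CCACG in 85.7% and 35.5%. A match to these letters is a description of the window and not a measured binding site.

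Levels below are log2 of the rescaled intensity plus 16, given as mean ± SD over 4 arrays or array by array in the order of replicates 1 to 4. Differences are on the same log2 scale with their standard error (SE), and a fold is the antilog of such a difference, which understates the change of faint transcripts. A level is compared only within its own probe set. A gene is called when the moderated test of limma gave a Benjamini-Hochberg adjusted p under 0.05 over all 15775 probe sets tested. Arrays carry no read depth, so precision is limited by how many there are. Of 10 luminal markers of the ventral prostate, 7 were measured and 6 passed the filter, among them Spink1 at 12.82 in 129X1 and 13.36 in BALB/c and Msmb at 12.26 and 13.55. The skeletal muscle score (the mean centred log2 level of 6 genes) reached 2.08 in 129X1 replicate 4 and 1.53 in SWR replicate 4, so counts without these arrays are given where they bear.

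Most of the machinery differed among the strains. By the moderated F test of limma, 31 of the 41 genes (75.6%) were called, against 36.4% of all probe sets tested. The 41 genes were read at their brightest probe sets, while the share of all probe sets includes fainter ones. The median range between the lowest and the highest strain mean was 0.68 on the log2 scale for these genes and 0.50 for all probe sets tested. In 13 of the 31 the strain means spanned at least 2-fold, from 2.06-fold for the chaperone Hsp90b1 to 3.99-fold for Bhlha15. The 10 genes not called were the chaperones Hspa5, Dnajb9 and Dnajb11, the isomerase P4hb, the translocon-associated protein Ssr1, the degradation genes Syvn1 and Derl2, and Xbp1, Atf6 and Ddit3. At the probe sets used, their ranges lay between 0.24 for Ssr1 and 0.53 for Syvn1, and their adjusted p between 0.053 for Syvn1 and 0.83 for Ddit3. Another Ssr1 probe set was called by the same F test (adjusted p = 2.4e-09). Its mean was 7.44 in C57BL/6 and between 8.56 and 9.15 in the other strains. Of all 41 genes, 36 had an unadjusted p under 0.05, and the share of all probe sets at that threshold was not computed. Leaving out 1 array at a time gave 29 to 33 called genes.

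**Figure D1:**
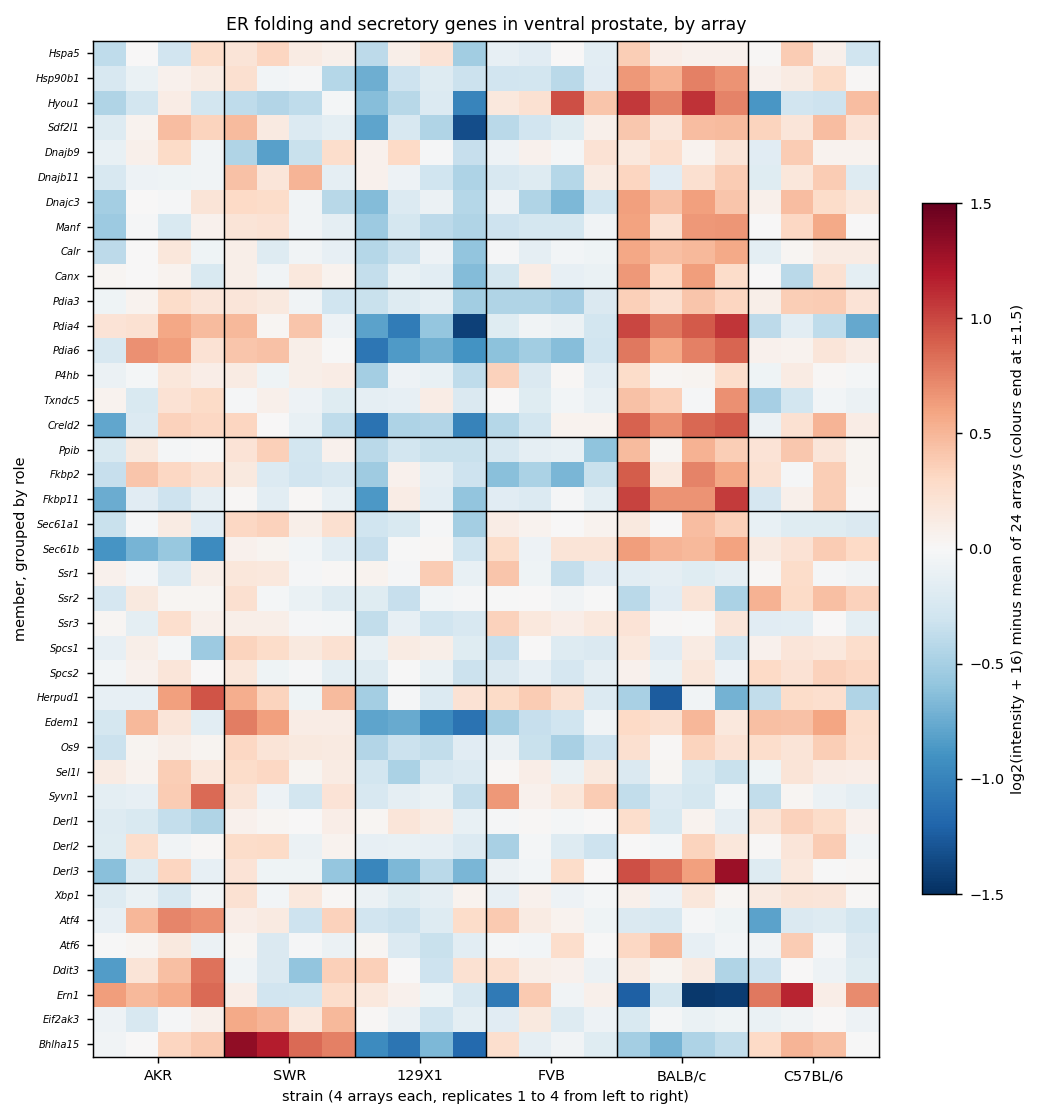
Heat map of the 41 genes, grouped by role in rows, over the 24 arrays in columns. The colour is the log2 level minus that gene's mean over all 24 arrays. The 129X1 columns are mostly blue in the chaperone and isomerase rows and the BALB/c columns mostly red, while Ern1 and Bhlha15 at the bottom are blue in BALB/c.

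The strain with the lowest level was most often 129X1 and the strain with the highest level most often BALB/c. The lowest of the 6 means was that of 129X1 for 23 of the 41 genes, and the highest was that of BALB/c for 20. Against the mean of the other 5 strains, 21 genes were lower in 129X1 and 0 higher, where 5.27% of all probe sets were lower and 6.38% higher. The count of 0 from limma was also 0 at an unadjusted p under 0.05 and with array weights. The median difference of the 41 genes was -0.31 in 129X1, against 0.01 for all probe sets, and 38 of the 41 differences were below 0. In BALB/c 20 genes were higher and 3 lower, where 8.3% of all probe sets were higher and 10.6% lower. The median difference there was 0.23, against -0.01 for all probe sets, and 29 of the 41 were above 0. These 6 comparisons share arrays, since each strain is part of the mean that the others are set against, so they are given side by side. The count lower in 129X1 was 14 without 129X1 replicate 1 or without replicate 4, and the count higher in BALB/c was 15 without BALB/c replicate 4.

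**Figure D2:**
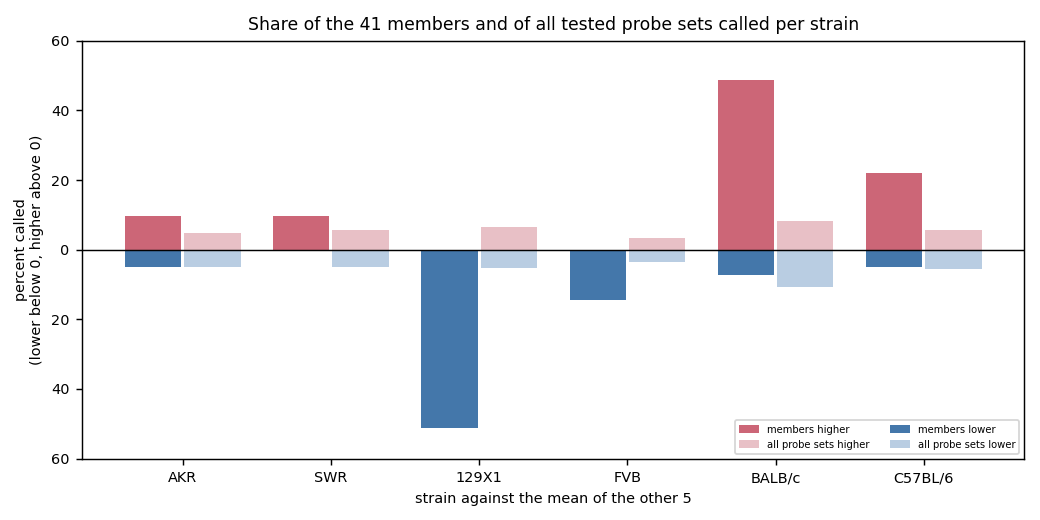
Bars give the percent of the 41 genes (dark) and of all 15775 tested probe sets (light) called in each strain relative to the other 5, higher above the zero line and lower below it. For 129X1 the dark bar reaches 51.2% below the line and for BALB/c 48.8% above it, while all light bars lie at or under 10.6%.

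Markers of the cell types in the lobe also differed between these strains. In BALB/c 5 of 6 luminal markers were higher and the sixth, Hoxb13, was lower (-0.30, adjusted p = 0.018), all 4 basal markers were lower and 5 of 6 smooth muscle markers were lower. In 129X1 3 of 4 basal and 3 of 6 smooth muscle markers were higher and 1 luminal marker, Krt18, was lower. Intensities were also summed as deposited, without rescaling, over all measured markers of a type, which were 7 for the luminal cells. The summed intensity of the luminal markers was 32145 to 34383 in BALB/c, 16823 to 20239 in 129X1, 15313 to 18033 in C57BL/6, 16141 to 25589 in AKR, 18224 to 20872 in SWR and 19733 to 27679 in FVB. That of the smooth muscle markers was 3786 to 3886 in BALB/c, 6955 to 9233 in 129X1, 4594 to 6268 in C57BL/6, 4586 to 6077 in AKR, 6484 to 10945 in SWR and 7891 to 9275 in FVB. That of the basal markers was 221 to 269 in BALB/c, 758 to 898 in 129X1, 258 to 299.7 in C57BL/6, 366 to 569 in AKR, 595 to 779 in SWR and 398 to 467 in FVB. All 3 adipocyte markers were higher in BALB/c and in FVB. Plasma cells also carry much of this machinery. Of 10 markers of plasma and B cells, 7 passed the filter. Of these, 1 (Ms4a1) was higher in 129X1, 1 (Sdc1) was lower in BALB/c, and none was higher in BALB/c. In C57BL/6 the plasma cell genes Jchain (1.67-fold, adjusted p = 0.016) and Ighm (1.9-fold, adjusted p = 0.014) were higher and Sdc1 was lower, Ighm was lower in FVB and Ms4a1 lower in SWR. The part of these markers in the results on the 41 genes was not tested. In whole tissue, fewer cells of a type and less RNA per cell cannot be told apart.

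**Figure D3:**
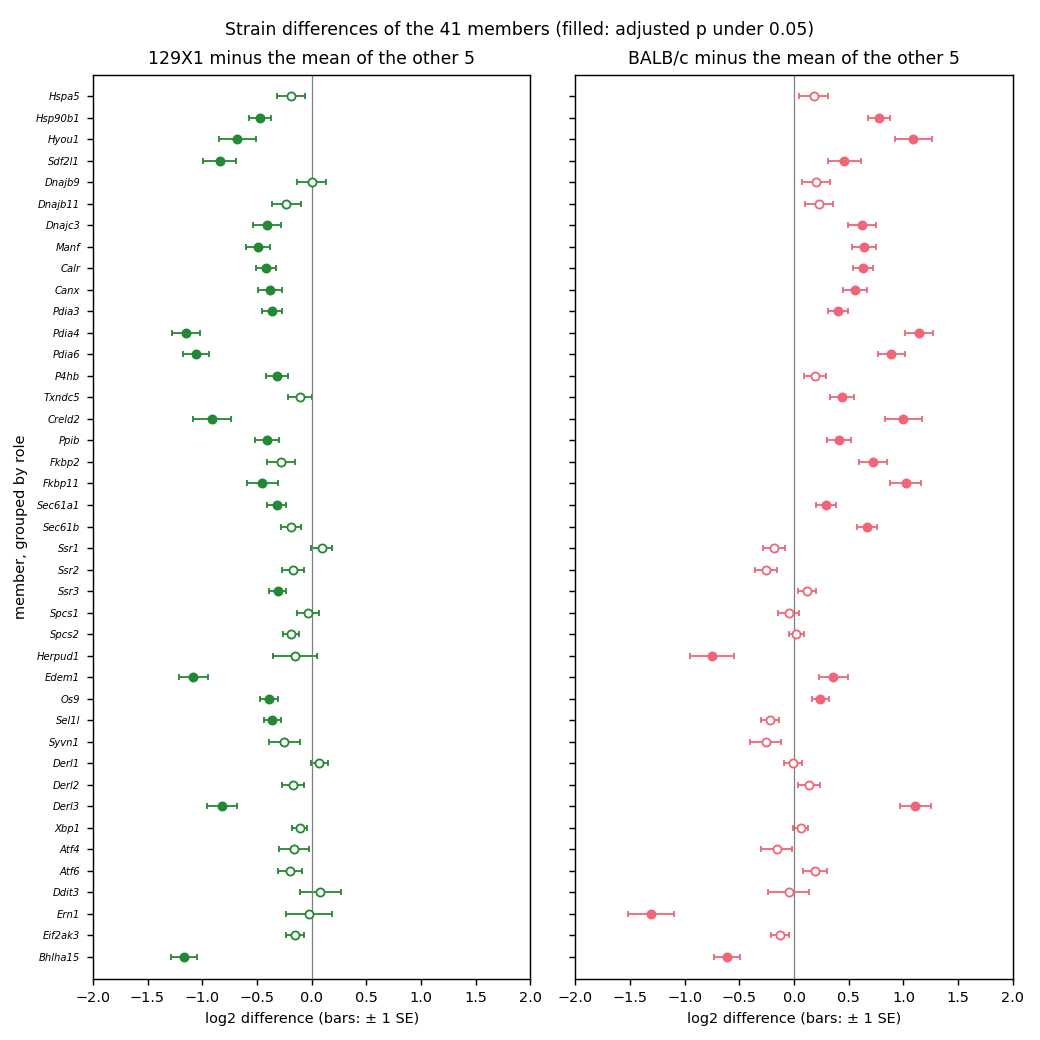
Log2 difference of each of the 41 genes between 129X1 (left) or BALB/c (right) and the mean of the other 5 strains, with bars of 1 SE and filled points where the adjusted p was under 0.05. In 129X1 the filled points all lie left of 0, down to -1.17 for Bhlha15, and in BALB/c they reach 1.14 for Pdia4, with Herpud1, Ern1 and Bhlha15 left of 0.

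Chaperones of the lumen and their partners were low in 129X1 and high in BALB/c in 5 of 8 cases. Hsp90b1, Hyou1, Sdf2l1, Dnajc3 and Manf were called lower in 129X1 and higher in BALB/c. Hsp90b1 (GRP94), the Hsp90 chaperone of the compartment, was 2.06-fold higher in BALB/c than in 129X1. Hsp90b1 levels were 9.95, 10.09, 10.25 and 10.31 in AKR, 10.43, 10.15, 10.17 and 9.76 in SWR, and 9.45, 9.88, 9.99 and 9.86 in 129X1. For Hsp90b1, the levels were 9.90, 9.91, 9.79 and 10.02 in FVB, 10.84, 10.71, 10.95 and 10.86 in BALB/c, and 10.25, 10.31, 10.48 and 10.21 in C57BL/6. All 4 BALB/c arrays lay above the other 20 arrays, and the 129X1 arrays overlapped those of the other strains. The difference from the mean of the other 5 was 0.78 (SE 0.10, adjusted p = 8.8e-06 by limma) in BALB/c and -0.47 (SE 0.10, adjusted p = 0.0031) in 129X1. Its second probe set was also called in both strains (0.89 in BALB/c and -0.60 in 129X1).

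Hyou1, a large chaperone that exchanges the nucleotide of Hspa5, ranged 2.78-fold. Hyou1 levels were 8.99, 9.17, 9.56 and 9.18 in AKR, 9.07, 9.01, 9.07 and 9.42 in SWR, and 8.81, 9.03, 9.24 and 8.45 in 129X1. For Hyou1, the levels were 9.61, 9.68, 10.42 and 9.86 in FVB, 10.51, 10.20, 10.54 and 10.19 in BALB/c, and 8.58, 9.16, 9.14 and 9.91 in C57BL/6. Those of BALB/c were high but overlapped FVB replicate 3, and the C57BL/6 arrays were widely spread. The difference was 1.09 (SE 0.17, adjusted p = 8.6e-05) in BALB/c and -0.68 (SE 0.17, adjusted p = 0.01) in 129X1. A further Hyou1 probe set was higher in BALB/c too, by 0.97 (adjusted p = 0.0015), but had its lowest mean in FVB (5.81) and a difference of 0.13 in 129X1 (adjusted p = 0.76). Another, fainter Hyou1 probe set had its lowest mean in BALB/c (5.76), with a difference of -0.27 there (adjusted p = 0.19) and -0.17 in 129X1 (adjusted p = 0.51). Sdf2l1, which works with Hspa5 and its DnaJ partners, ranged 2.12-fold. Sdf2l1 levels were 8.29, 8.54, 8.95 and 8.81 in AKR, 8.96, 8.61, 8.28 and 8.33 in SWR, and 7.70, 8.25, 8.04 and 7.16 in 129X1. For Sdf2l1, the levels were 8.08, 8.20, 8.31 and 8.56 in FVB, 8.90, 8.67, 8.94 and 8.96 in BALB/c, and 8.82, 8.67, 8.95 and 8.69 in C57BL/6. The 129X1 arrays were spread from 7.16 to 8.25 and the highest of them overlapped FVB. The difference was -0.84 (SE 0.15, adjusted p = 0.00039) in 129X1 and 0.46 (SE 0.15, adjusted p = 0.034) in BALB/c.

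Dnajc3 (p58IPK), a DnaJ partner that also inhibits the kinase PERK, was at 10.95 ± 0.11 in BALB/c, 10.09 ± 0.25 in 129X1 and 10.07 ± 0.25 in FVB, and was called lower in both of the last named strains. Its other tested probe sets had BALB/c differences of 0.06, 0.29, 0.08 and -0.34, none of them called. In 129X1 they were -0.30 (adjusted p = 0.037), -0.66 (adjusted p = 0.00025), -0.12 (adjusted p = 0.59) and 0.03 (adjusted p = 0.93). With the mean of its probe sets the BALB/c call of Dnajc3 was lost (0.14, adjusted p = 0.25). The 129X1 call was lost under 19 of 32 alternatives. Manf, a secreted protein that binds Hspa5, was at 10.93 ± 0.21 in BALB/c and 9.98 ± 0.12 in 129X1. Hspa5 (BiP), the principal Hsp70 chaperone of the compartment, was not called among strains. Hspa5 levels were 11.62, 12.00, 11.72 and 12.27 in AKR, 12.19, 12.32, 12.12 and 12.07 in SWR, and 11.60, 12.09, 12.21 and 11.48 in 129X1. For Hspa5, the levels were 11.87, 11.84, 12.00 and 11.84 in FVB, 12.37, 12.10, 12.06 and 12.06 in BALB/c, and 12.02, 12.37, 12.07 and 11.70 in C57BL/6. The strain means ran from 11.84 in 129X1 to 12.18 in SWR and the arrays of all strains overlapped (adjusted p = 0.32). The second Hspa5 probe set was called (adjusted p = 0.0011), but with its lowest mean in SWR (9.61) and its highest in C57BL/6 (10.61). Its partners Dnajb9 and Dnajb11 were not called, with ranges of 0.50 and 0.44.

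The lectin chaperones Calr and Canx hold newly glycosylated proteins in the compartment until they fold, and both were called in BALB/c and in 129X1. Calr was at 12.21 ± 0.06 in BALB/c, between 11.62 and 11.72 on average in AKR, SWR, FVB and C57BL/6, and at 11.34 ± 0.21 in 129X1. Canx was at 10.61 ± 0.20 in BALB/c, between 10.05 and 10.21 in those 4 strains, and at 9.83 ± 0.24 in 129X1. For both genes all 4 BALB/c arrays lay above the other 20 arrays. The difference of Calr was 0.63 (SE 0.09, adjusted p = 3.5e-05) in BALB/c and -0.42 (SE 0.09, adjusted p = 0.0029) in 129X1, and that of Canx 0.56 (SE 0.11, adjusted p = 0.00078) and -0.38 (SE 0.11, adjusted p = 0.021). The other tested Canx probe sets had BALB/c differences of -0.19 and -0.07 and 129X1 differences of -0.35 and 0.13, none of them called. With the mean of its probe sets both calls of Canx were lost (adjusted p = 0.46 in BALB/c and 0.15 in 129X1).

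Among the disulfide isomerases and related proteins, 5 of 6 were lower in 129X1 (Pdia3, Pdia4, Pdia6, P4hb and Creld2) and 5 of 6 higher in BALB/c (Pdia3, Pdia4, Pdia6, Txndc5 and Creld2). Pdia4 (ERp72) had the widest range of the folding enzymes, 3.74-fold. Pdia4 levels were 8.29, 8.32, 8.66 and 8.57 in AKR, 8.57, 8.11, 8.50 and 8.01 in SWR, and 7.28, 7.04, 7.51 and 6.69 in 129X1. For Pdia4, the levels were 7.91, 8.03, 7.99 and 7.81 in FVB, 9.08, 8.88, 9.0 and 9.16 in BALB/c, and 7.69, 7.93, 7.70 and 7.32 in C57BL/6. The BALB/c arrays lay above all other 20, and the 129X1 arrays were the lowest apart from an overlap with C57BL/6. In the order of strain means, 129X1 differed from C57BL/6 (1.45-fold, adjusted p = 0.033) and AKR from BALB/c (1.49-fold, adjusted p = 0.021), while the neighbours between them were not called. A fainter Pdia4 probe set was not called among strains (adjusted p = 0.087).

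Pdia6, an isomerase that also binds the sensor Ern1, ranged 3.1-fold. Pdia6 levels were 10.67, 11.60, 11.54 and 11.13 in AKR, 11.33, 11.35, 11.00 and 10.91 in SWR, and 9.83, 10.07, 10.19 and 10.02 in 129X1. For Pdia6, the levels were 10.30, 10.39, 10.28 and 10.61 in FVB, 11.71, 11.48, 11.66 and 11.78 in BALB/c, and 10.97, 10.96, 11.10 and 11.02 in C57BL/6. The 129X1 arrays lay below all other 20, the FVB arrays came next, and the BALB/c arrays overlapped AKR. The step from FVB to C57BL/6 was 1.54-fold (adjusted p = 0.011). Its differences were -1.06 (SE 0.12, adjusted p = 1.5e-06) in 129X1, -0.62 (SE 0.12, adjusted p = 0.0019) in FVB and 0.89 (SE 0.12, adjusted p = 1.4e-05) in BALB/c. A fainter Pdia6 probe set had a 129X1 difference of only -0.06 and its lowest mean in C57BL/6 (6.07).

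Creld2, a secreted stress-induced protein with isomerase-like motifs, ranged 3.01-fold. Creld2 levels were 8.75, 9.32, 9.87 and 9.84 in AKR, 9.85, 9.53, 9.42 and 9.14 in SWR, and 8.42, 9.06, 9.08 and 8.52 in 129X1. For Creld2, the levels were 9.09, 9.25, 9.57 and 9.58 in FVB, 10.41, 10.21, 10.38 and 10.44 in BALB/c, and 9.44, 9.76, 10.03 and 9.64 in C57BL/6. The BALB/c arrays lay between 10.21 and 10.44, above all other 20 arrays. The 129X1 arrays were lowest apart from AKR replicate 1, which fell among them. The step from C57BL/6 to BALB/c was 1.56-fold (adjusted p = 0.044). Pdia3 (ERp57), which works with Calr and Canx, was lower in 129X1 at 10.07 ± 0.17 and lower in FVB at 9.96 ± 0.13. It was higher in BALB/c at 10.71 ± 0.07 and C57BL/6 at 10.63 ± 0.14. P4hb, the classical protein disulfide isomerase, was at 11.84 ± 0.21 in 129X1 against 12.16 on average elsewhere (adjusted p = 0.028 for 129X1, 0.1 among all strains). Txndc5 was at 9.51 ± 0.29 in BALB/c against 9.07 (adjusted p = 0.0056).

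All 3 prolyl isomerases, which speed the turning of peptide bonds before proline, were higher in BALB/c, and Ppib and Fkbp11 were lower in 129X1. Fkbp11 is an isomerase enriched in secretory tissues. Fkbp11 levels were 6.94, 7.51, 7.37 and 7.55 in AKR, 7.69, 7.51, 7.70 and 7.56 in SWR, and 6.82, 7.79, 7.52 and 7.09 in 129X1. For Fkbp11, the levels were 7.50, 7.47, 7.66 and 7.53 in FVB, 8.69, 8.35, 8.35 and 8.72 in BALB/c, and 7.42, 7.75, 8.05 and 7.70 in C57BL/6. The BALB/c arrays lay above the other 20, while the other 5 strains overlapped. The step from C57BL/6 to BALB/c was 1.74-fold (adjusted p = 0.003). Fkbp2 levels were 9.05, 9.81, 9.70 and 9.62 in AKR, 9.53, 9.19, 9.10 and 9.15 in SWR, and 8.86, 9.46, 9.25 and 9.08 in 129X1. For Fkbp2, the levels were 8.77, 8.92, 8.70 and 9.06 in FVB, 10.30, 9.55, 10.14 and 9.97 in BALB/c, and 9.62, 9.37, 9.76 and 9.44 in C57BL/6. For Fkbp2 the FVB arrays were lowest and overlapped 129X1 and AKR replicate 1, and the BALB/c arrays were highest apart from replicate 2. Fkbp2 differed by -0.63 (SE 0.13, adjusted p = 0.0037) in FVB and 0.72 (SE 0.13, adjusted p = 0.00051) in BALB/c. Ppib, a collagen-folding isomerase, was at 11.66 ± 0.22 in BALB/c and 10.98 ± 0.05 in 129X1.

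**Figure D4:**
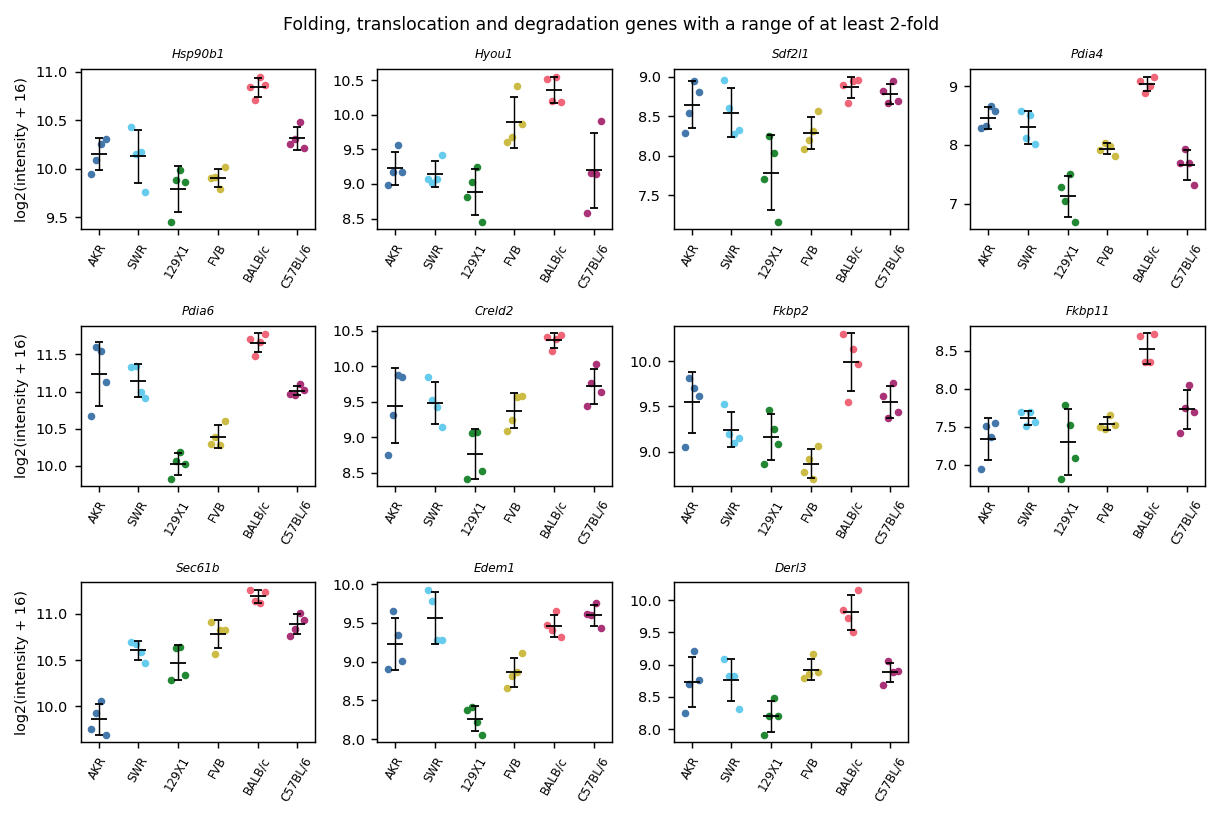
Log2 level on each array (points), with mean and SD per strain (bars), for the 11 folding, translocation and degradation genes whose strain means spanned at least 2-fold. The BALB/c points are highest in most panels and the 129X1 points lowest, with AKR lowest for Sec61b and FVB lowest for Fkbp2. Each panel has its own vertical range.

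The translocation genes were less uniform, with 2 of 7 lower in 129X1 (Sec61a1 and Ssr3) and 2 of 7 higher in BALB/c (Sec61a1 and Sec61b). Sec61b, the beta subunit of the Sec61 channel, was lowest in AKR. Sec61b levels were 9.75, 9.93, 10.06 and 9.69 in AKR, 10.69, 10.67, 10.59 and 10.47 in SWR, and 10.28, 10.63, 10.64 and 10.34 in 129X1. For Sec61b, the levels were 10.91, 10.56, 10.82 and 10.82 in FVB, 11.26, 11.14, 11.12 and 11.23 in BALB/c, and 10.76, 10.84, 11.01 and 10.93 in C57BL/6. The AKR arrays lay below all other 20 arrays and the BALB/c arrays above them. The difference was -0.93 (SE 0.09, adjusted p = 7.8e-08) in AKR and 0.67 (SE 0.09, adjusted p = 6.8e-06) in BALB/c, and the step from AKR to 129X1 was 1.53-fold (adjusted p = 0.00058). Sec61a1, the pore subunit, spanned only 0.51, from 9.75 ± 0.20 in 129X1 to 10.27 ± 0.11 in SWR, and of its 5 further probe sets 1 had a BALB/c difference of the same direction (0.27, adjusted p = 0.18), while 4 were below 0 there and 2 of those were called lower. With the mean of its probe sets the BALB/c difference of Sec61a1 was -0.06 (adjusted p = 0.58). The translocon-associated proteins Ssr2 and Ssr3 behaved differently from each other. Ssr2 was highest in C57BL/6 at 8.67 ± 0.11 against 8.19 on average elsewhere, and Ssr3 was lowest in 129X1 at 9.76 ± 0.10 against 10.07. The signal peptidase subunit Spcs2 was highest in C57BL/6 at 10.39 ± 0.05 against 10.04 (adjusted p = 0.0027), and for both Ssr2 and Spcs2 the C57BL/6 arrays lay above the other 20. Spcs1 was called among strains at an adjusted p of 0.047 and its call was lost under 18 of 32 alternatives.

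Genes that remove misfolded proteins were lower in 129X1 in 4 of 8 cases (Edem1, Os9, Sel1l and Derl3). Edem1, a lectin that marks misfolded glycoproteins for degradation, ranged 2.52-fold. Edem1 levels were 8.91, 9.65, 9.35 and 9.01 in AKR, 9.93, 9.78, 9.28 and 9.28 in SWR, and 8.38, 8.41, 8.22 and 8.05 in 129X1. For Edem1, the levels were 8.66, 8.82, 8.86 and 9.11 in FVB, 9.47, 9.41, 9.66 and 9.32 in BALB/c, and 9.61, 9.60, 9.76 and 9.43 in C57BL/6. The 129X1 arrays lay below all other 20 arrays. The difference in 129X1 was -1.08 (SE 0.13, adjusted p = 2e-06), the step from 129X1 to FVB was 1.51-fold (adjusted p = 0.022), and the second Edem1 probe set was also called lower in 129X1. Derl3, a membrane protein of the export channel that is found mainly in secretory tissues, ranged 3.04-fold. Derl3 levels were 8.26, 8.70, 9.21 and 8.76 in AKR, 9.09, 8.82, 8.82 and 8.31 in SWR, and 7.91, 8.21, 8.49 and 8.20 in 129X1. For Derl3, the levels were 8.80, 8.85, 9.16 and 8.89 in FVB, 9.85, 9.72, 9.50 and 10.16 in BALB/c, and 8.69, 9.05, 8.88 and 8.90 in C57BL/6. The BALB/c arrays lay above all other 20, and the 129X1 arrays were low but overlapped AKR and SWR. The difference was 1.11 (SE 0.14, adjusted p = 6.3e-06) in BALB/c and -0.82 (SE 0.14, adjusted p = 0.00032) in 129X1. Its relative Derl1 had another order at its brightest probe set, called lower in AKR at 9.15 ± 0.12 and higher in C57BL/6 at 9.67 ± 0.12. With the mean of its probe sets both calls of Derl1 were lost (adjusted p = 0.62 in AKR and 0.11 in C57BL/6). Further Derl1 probe sets had BALB/c differences of -0.31 (adjusted p = 0.0096), 0.07 (adjusted p = 0.61) and -0.15 (adjusted p = 0.44). Derl2 was not called (adjusted p = 0.055).

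The lectin Os9 and the adaptor Sel1l both belong to the ubiquitin ligase complex of Syvn1 (HRD1). Os9 was at 9.01 ± 0.11 in 129X1 and 9.03 ± 0.16 in FVB, both called lower, and at 9.54 ± 0.13 in BALB/c and 9.60 ± 0.07 in C57BL/6, both called higher. The BALB/c call of Os9 was lost under 21 of 32 alternatives, and with the mean of its probe sets the difference turned to -0.04 in BALB/c (adjusted p = 0.86) and was not called in C57BL/6 (adjusted p = 0.56) or in 129X1 (adjusted p = 0.066). Sel1l was at 8.01 ± 0.12 in 129X1 against 8.37 on average elsewhere (adjusted p = 0.0047), and at 8.13 ± 0.16 in BALB/c (not called). Further Sel1l probe sets had BALB/c differences of -0.48 (adjusted p = 0.0031), -0.48 (adjusted p = 0.011) and -0.09 (adjusted p = 0.65). Syvn1 was at 8.54 ± 0.12 in 129X1 and 8.54 ± 0.15 in BALB/c, with its highest mean in FVB at 9.07 ± 0.26. Herpud1, a stress-induced scaffold of the same complex, was lower in BALB/c. Herpud1 levels were 9.76, 9.76, 10.50 and 10.83 in AKR, 10.43, 10.22, 9.82 and 10.36 in SWR, and 9.38, 9.87, 9.67 and 10.10 in 129X1. For Herpud1, the levels were 10.16, 10.27, 10.11 and 9.68 in FVB, 9.40, 8.63, 9.83 and 9.17 in BALB/c, and 9.51, 10.16, 10.14 and 9.43 in C57BL/6. On average the BALB/c arrays were the lowest but overlapped those of other strains, and the spread within strains reached an SD of 0.54. The difference was -0.75 (SE 0.20, adjusted p = 0.0099).

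The sensors and transcription factors had orders of their own. At the probe sets used, none of the 7 was higher in BALB/c, and Bhlha15 alone was lower in 129X1. Bhlha15 levels were 10.06, 10.12, 10.43 and 10.51 in AKR, 11.44, 11.29, 10.96 and 10.86 in SWR, and 9.16, 9.01, 9.43 and 8.95 in 129X1. For Bhlha15, the levels were 10.36, 9.97, 10.06 and 9.92 in FVB, 9.60, 9.41, 9.65 and 9.74 in BALB/c, and 10.41, 10.62, 10.56 and 10.10 in C57BL/6. For Bhlha15 the SWR arrays lay above all other 20, the 129X1 and BALB/c arrays were the 2 lowest groups, and the 129X1 arrays overlapped BALB/c only through replicate 3. The difference was 1.23 (SE 0.12, adjusted p = 1.5e-07) in SWR, -1.17 (SE 0.12, adjusted p = 2.4e-07) in 129X1 and -0.61 (SE 0.12, adjusted p = 0.00078) in BALB/c. Neighbouring strain means differed between 129X1 and BALB/c (1.38-fold, adjusted p = 0.039), BALB/c and FVB (1.39-fold, adjusted p = 0.044) and C57BL/6 and SWR (1.64-fold, adjusted p = 0.0039). The second Bhlha15 probe set was also lower in 129X1 (-0.99, adjusted p = 1.3e-06) and in BALB/c (-0.77, adjusted p = 3.3e-05).

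Ern1 (IRE1), the kinase and ribonuclease that splices Xbp1 mRNA, ranged 3.42-fold at a faint probe set. Ern1 levels were 6.83, 6.70, 6.76 and 7.06 in AKR, 6.31, 5.92, 5.93 and 6.47 in SWR, and 6.37, 6.28, 6.15 and 5.97 in 129X1. For Ern1, the levels were 5.15, 6.60, 6.15 and 6.29 in FVB, 4.99, 5.94, 4.76 and 4.79 in BALB/c, and 7.0, 7.35, 6.31 and 6.92 in C57BL/6. The BALB/c arrays were lowest, although BALB/c replicate 2 reached the level of SWR and FVB replicate 1 fell among the BALB/c arrays. The difference was -1.31 (SE 0.21, adjusted p = 9.4e-05) in BALB/c, 0.82 (SE 0.21, adjusted p = 0.011) in C57BL/6 and 0.76 (SE 0.21, adjusted p = 0.022) in AKR. The BALB/c mean intensity at this probe set was 19.9, close to the 16 added before the log. The other tested Ern1 probe set was not called (adjusted p = 0.16), with strain means between 5.46 and 5.82. Its highest mean was that of BALB/c, with a difference of 0.19 (adjusted p = 0.23). Eif2ak3 (PERK), the kinase that slows translation, was highest in SWR. Eif2ak3 levels were 8.16, 7.99, 8.21 and 8.31 in AKR, 8.80, 8.74, 8.39 and 8.72 in SWR, and 8.25, 8.15, 7.93 and 8.08 in 129X1. For Eif2ak3, the levels were 8.07, 8.38, 8.04 and 8.15 in FVB, 8.00, 8.20, 8.13 and 8.17 in BALB/c, and 8.13, 8.17, 8.23 and 8.15 in C57BL/6. All 4 SWR arrays lay above the other 20, by a mean difference of 0.52 (SE 0.08, adjusted p = 0.00025), while the other 5 strain means lay between 8.10 and 8.17.

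Atf4, the transcription factor whose translation rises when PERK is active, was highest in AKR at 9.12 ± 0.39 and lowest in C57BL/6 at 8.30 ± 0.29, and both were called. Xbp1, the factor that Ern1 activates by splicing, stayed within 0.28 over the strain means, from 10.76 ± 0.08 in AKR to 11.03 ± 0.08 in C57BL/6 (adjusted p = 0.097). The 3 further Xbp1 probe sets were each called among strains (adjusted p = 0.0011, 0.0011 and 0.0037). The first was lower in 129X1 (-0.54, adjusted p = 0.0069) and not called in BALB/c (-0.32, adjusted p = 0.088). The second was higher in BALB/c (0.62, adjusted p = 0.0041) and not called in 129X1 (-0.06, adjusted p = 0.86). The third was called in neither (-0.17 in 129X1 and 0.14 in BALB/c). No separate value was given for the spliced mRNA. Atf6 (adjusted p = 0.39) and Ddit3 (CHOP, adjusted p = 0.83), a factor tied to cell death under stress, were not called, and Ddit3 had an SD of 0.71 in AKR.

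**Figure D5:**
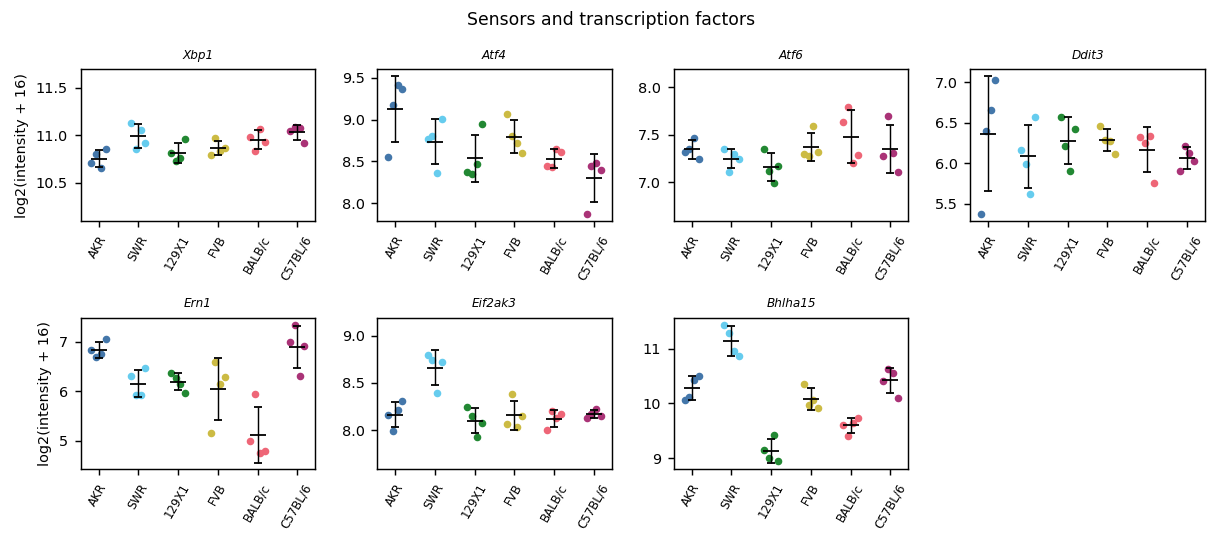
Log2 level on each array (points), with mean and SD per strain (bars), for the 7 sensors and transcription factors. SWR stands above the other strains for Eif2ak3 and Bhlha15, BALB/c is lowest for Ern1, and Xbp1 stays within 0.28 over the strain means. Each panel has its own vertical range.

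The genes whose promoter window held an ERSE were spread over these roles. Of the 9, 7 were called lower in 129X1 (Hsp90b1, Calr, Canx, Creld2, Pdia6, Dnajc3 and Derl3) with a median difference of -0.42, and 7 higher in BALB/c with a median of 0.63. The ERSE genes Hspa5 and Syvn1 were called in neither strain. Of the 26 genes with a window and no ERSE, 11 were lower in 129X1 (median -0.21), and 10 were higher and 3 lower in BALB/c (median 0.17). With the mean of a gene's probe sets, the ERSE genes lost the BALB/c calls of Canx and Dnajc3 and the 129X1 call of Canx. Those without an ERSE lost the 129X1 calls of Fkbp11 and Os9 and the BALB/c calls of Txndc5, Edem1 and Os9. These counts describe the sites printed above and were not tested.

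The other 4 strains had fewer calls. In C57BL/6 9 genes were higher and 2 lower (5.65% and 5.45% of all probe sets), the higher ones being Pdia3, Sec61b, Ssr2, Spcs2, Edem1, Os9, Derl1, Ern1 and Bhlha15, and the lower ones Pdia4 and Atf4. The higher count was 4 without C57BL/6 replicate 2 or replicate 3, and the lower count was 1 without any 1 of the 4 arrays. Without replicate 4 neither Pdia4 (adjusted p = 0.073) nor Atf4 (adjusted p = 0.075) was called, and the gene then lower was Hyou1 (-0.54, adjusted p = 0.045). In FVB 6 genes were lower and 0 higher (3.65% and 3.45% of all probe sets), namely Hsp90b1, Dnajc3, Pdia3, Pdia6, Fkbp2 and Os9. That lower count was 3 without FVB replicate 3, and 3 genes were higher in FVB at an unadjusted p under 0.05 in limma and 0 with array weights. In SWR 4 genes were higher and 0 lower (5.52% and 5.04% of all probe sets), namely Sec61a1, Edem1, Eif2ak3 and Bhlha15, with 2 lower at an unadjusted p under 0.05 in limma and 1 lower with array weights. The higher count was 2 without SWR replicate 1 or replicate 2. Without SWR replicate 4, the array with the high skeletal muscle score, it was 3, with Sec61a1 lost (adjusted p = 0.088), and 1 gene, Dnajb9, was lower (-0.60, adjusted p = 0.0038). In AKR 4 genes were higher (Pdia4, Pdia6, Atf4 and Ern1) and 2 lower (Sec61b and Derl1), against 4.67% and 5.12% of all probe sets. All 4 higher calls in AKR were lost without AKR replicate 3 or without replicate 4. A share of 2 in 41 or 4 in 41 (4.88% and 9.76%) lies close to these backgrounds.

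Set directly against each other, 129X1 and BALB/c differed in 24 of the 41 genes. Of these, 23 were lower in 129X1 and 1, Ern1, was higher, where 7.75% of all probe sets were lower and 9.84% higher. The largest differences were those of Pdia4 (3.74-fold, adjusted p = 1.1e-08), Pdia6 (3.1-fold, adjusted p = 9.9e-08), Derl3 (3.04-fold, adjusted p = 1.2e-06) and Creld2 (3.01-fold, adjusted p = 1.2e-05). The chaperone Hspa5 differed by 1.23-fold in the same direction (adjusted p = 0.21). Over all 15 pairs of strains, 184 of the 615 gene and pair combinations were called, against 11.4% of all such combinations. For the pairs with SWR, 11 genes were called against 129X1 (9.2% of all probe sets), 8 against FVB (6.87%) and 6 against C57BL/6 (7.97%). Those with AKR gave 12 against 129X1 (11.4%), 16 against BALB/c (12.6%), 5 against FVB (7.42%) and 5 against C57BL/6 (11.5%). FVB differed in 7 genes from 129X1 (8.49%) and in 13 from C57BL/6 (10.8%), and BALB/c and C57BL/6 differed in 14 (14.6%). After the pair of 129X1 and BALB/c, the largest counts were 21 genes for SWR against BALB/c (19.8% of all probe sets), 20 for FVB against BALB/c (11.6%) and 18 for 129X1 against C57BL/6 (11.5%), and the smallest was 4 for AKR against SWR (10% of all probe sets). Of the 205 steps between neighbours in the order of strain means, 17 were called. Such steps are the smallest gaps in each order, and a step not called does not show that the strains were alike. The share of such steps over all probe sets was not computed.

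The calls differed in how far they held over the 32 alternative settings, 24 of which left out 1 array. Of the 21 lower calls in 129X1, 11 held in all of them: Hsp90b1, Sdf2l1, Manf, Calr, Pdia4, Pdia6, Creld2, Edem1, Sel1l, Derl3 and Bhlha15. Of the 20 higher calls in BALB/c, 11 held: Hsp90b1, Hyou1, Manf, Calr, Pdia4, Pdia6, Creld2, Fkbp2, Fkbp11, Sec61b and Derl3. Ern1 and Bhlha15 held among the 3 genes lower in BALB/c. Also held were Ssr2, Spcs2 and Edem1 in C57BL/6, Pdia3, Pdia6 and Fkbp2 in FVB, Eif2ak3 and Bhlha15 in SWR and Sec61b in AKR, and none of the 4 higher calls in AKR held. Without 129X1 replicate 4, the array with the high skeletal muscle score, the 129X1 calls of Hyou1, Pdia3, P4hb, Dnajc3, Fkbp11, Canx and Sec61a1 were lost, with adjusted p from 0.087 to 0.17. Without 129X1 replicate 1 those of Ssr3, Ppib, Canx, Sec61a1, P4hb, Dnajc3 and Fkbp11 were lost, with adjusted p from 0.053 to 0.24. In BALB/c the call of Sdf2l1 was lost without replicate 1, 3 or 4 (adjusted p = 0.084, 0.09 and 0.1), that of Sec61a1 without replicate 3 or 4 (0.15 and 0.12), that of Txndc5 without replicate 4 (0.053) and that of Herpud1 without replicate 2 (0.082). Lost under 10 or more alternatives were Dnajc3 in 129X1, Edem1 and Os9 in BALB/c, Hsp90b1 and Dnajc3 in FVB, Sec61a1 in SWR, Pdia6 in AKR and both Bhlha15 and Atf4 in C57BL/6.

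Several genes had more than 1 probe set. There were 48 further probe sets for 26 of the genes, 43 of them above the filter and 30 called among strains. Of the 21 genes lower in 129X1, 14 had another tested probe set, 27 in all. Of these 27, 10 were called lower, 0 were called higher and 22 had a difference below 0. Of the 20 genes higher in BALB/c, 13 had another, 24 in all, of which 6 were called higher, 2 (both of Sec61a1) were called lower and 14 had a difference above 0. Calls of Calr, Hsp90b1 and Ppib were repeated at another probe set in both strains. With the mean of a gene's probe sets, the calls of Hyou1, Canx, Fkbp11 and Os9 in 129X1 and of Dnajc3, Canx, Txndc5, Sec61a1, Edem1 and Os9 in BALB/c were lost. Also lost were those of Os9, Derl1, Atf4 and Ern1 in C57BL/6, Hsp90b1 and Dnajc3 in FVB, and Pdia4 and Derl1 in AKR.

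Among mice of the same strain, the levels of these genes were weakly correlated at the median. After each strain's mean was removed, the median correlation between 2 of the 41 genes over the 24 arrays was 0.23 (820 pairs), against -0.01 between one of them and other tested probe sets. The 41 genes were read at their brightest probe sets, while the other tested probe sets include fainter ones. Of the 820 pairs, among the highest were 0.80 between Sdf2l1 and Creld2 and between Pdia3 and Creld2, and 0.79 between Hsp90b1 and Dnajc3. The values of a pair come from the same arrays and share their scaling. The median correlation of a gene with the other 40 was 0.44 for Creld2 and -0.13 for Ern1. The mean centred log2 level of the 41 genes was -0.38, -0.22, -0.21 and -0.42 on the 4 arrays of 129X1 and 0.27, 0.13, 0.26 and 0.22 on those of BALB/c. It was -0.22, 0.03, 0.15 and 0.11 in AKR, 0.23, 0.09, -0.02 and 0.01 in SWR, -0.10, -0.08, -0.10 and -0.07 in FVB and -0.02, 0.16, 0.18 and 0.02 in C57BL/6. Apart from AKR replicate 1, every array of the other 5 strains lay above the 4 arrays of 129X1, while the BALB/c arrays overlapped AKR, SWR and C57BL/6.

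Other genes of the secretory pathway, pooled with 12 targets of PERK and Atf4, were read from 6 further lists of 87 genes. Of these, 80 were tested and 47 (58.8%) called among strains, against 36.4% of all probe sets. In 129X1 24 of the 80 (30%) were lower and 0 higher (5.27% and 6.38% of all probe sets), with 2 higher at an unadjusted p under 0.05 in limma, and a median difference of -0.21. In BALB/c 14 (17.5%) were higher and 9 (11.2%) lower, with a median of 0.02, where 8.3% and 10.6% of all probe sets were called, so the lower share lies close to the background. In SWR 15 (18.8%) were higher and 2 (2.5%) lower, with a median of 0.10, where the shares of all probe sets were 5.52% and 5.04%. The oligosaccharyltransferase and glycan trimming genes, which attach and shape the sugars of new proteins, had 6 of 12 lower in 129X1, among them the sensor of folding state Uggt1 (1.43-fold, adjusted p = 0.0046) and the catalytic subunit Stt3b (1.3-fold, adjusted p = 0.0088). Stt3b was 1.58-fold higher in BALB/c (adjusted p = 2.6e-05), 1 of 3 genes of that list that were higher there. Signal recognition and signal peptidase genes had 6 of 13 lower in 129X1, among them Ssr4, a partner of the translocon (1.47-fold, adjusted p = 0.00037), and Tram1, which assists translocation (1.33-fold, adjusted p = 0.00049). Ssr4 was higher in BALB/c (1.56-fold, adjusted p = 6.6e-05) and Tram1 lower there (1.2-fold, adjusted p = 0.013).

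Genes of vesicle traffic between the endoplasmic reticulum and the Golgi apparatus were called in both directions in BALB/c. Of 24 tested, 3 were higher and 6 lower there, where 8.3% and 10.6% of all probe sets were called. The higher count lies close to that background. Among the higher ones was Kdelr2 (1.65-fold, adjusted p = 0.00049), a receptor that returns chaperones to the compartment. The coat genes Sec31a, Sec23a, Sec24b, Sec24d and Sar1a and the cargo receptor Tmed10 were lower in BALB/c, by 1.17-fold to 1.48-fold. In 129X1 7 of the 24 were lower, among them Arcn1 (1.33-fold, adjusted p = 0.00049) and Kdelr3 (1.54-fold, adjusted p = 0.0056), and in SWR 6 were higher, among them Sar1a (1.38-fold, adjusted p = 0.00029). Of 9 oxidative folding genes 2 were lower in 129X1 and 2 higher in BALB/c. Erp44, which retains proteins by disulfide bonds, was in both counts (1.69-fold lower in 129X1, adjusted p = 4.9e-05, and 1.77-fold higher in BALB/c, adjusted p = 1.5e-05). Of 10 further degradation genes 2 were lower in 129X1 and 1 was lower in BALB/c. The shares of all probe sets called lower were 5.27% and 10.6%, so the BALB/c count lies at the background. Of 12 targets of PERK and Atf4, 1 was lower in 129X1, and 3 were higher and 1 lower in BALB/c. Asns was lower in 129X1 (1.18-fold, adjusted p = 0.037) and higher in BALB/c (1.44-fold, adjusted p = 2.3e-05). Nupr1 was 3.87-fold higher in BALB/c (adjusted p = 3.9e-09) and 4.42-fold lower in SWR (adjusted p = 1.3e-09). Also called in BALB/c were Eif4ebp1, higher (1.47-fold, adjusted p = 0.0021), and Cebpb, lower (1.58-fold, adjusted p = 0.038). In AKR Nupr1 was higher (1.76-fold, adjusted p = 0.0012), and Asns (1.55-fold, adjusted p = 2.4e-06) and Eif4ebp1 (2.37-fold, adjusted p = 1.7e-07) were lower.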

How the data were processed

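Total RNA of ventral prostate was measured on 24 MOE430A arrays, 4 from each of 6 strains. The deposited values are linear intensities, 1 for each probe set on each array. The submitters' processing notes name MAS5, with its version and settings not given in the sources used here. The deposited columns all had a mean of 143, while their 2% trimmed means ran from 91.4 to 105, so all arrays were brought to a common trimmed mean (98.7). The 64 control probe sets and 6851 that did not exceed their array's 40th percentile on at least 4 arrays were left out, which left 15775 of 22690. Gene symbols came from the platform annotation, updated through RefSeq (GRCm38.p6), and probe sets with several symbols were not assigned to a gene. RefSeq promoter windows were matched by symbol for 35 of the 41 genes.

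A model with 1 coefficient per strain was fitted to log2(intensity + 16) in limma 3.58.1 under R 4.3.3, with eBayes (18 residual degrees of freedom, prior 4.85). Tests were limma's moderated F over the 6 strains, the contrast of a strain with the average of the remaining 5, and the 15 pairwise contrasts, two-sided, with Benjamini-Hochberg adjustment within each comparison at 0.05. The fit was tested on simulated data. No pairing by replicate number was assumed, as the labels state none.

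The members of the gene group and the other gene and marker lists were chosen with earlier results of these data known. Values of every array are given for called genes whose strain means span at least 2-fold. Those of Hspa5, Herpud1 and Eif2ak3, and the examples named from the further pathway lists, were chosen after their values were seen. The alternatives were no rescaling, quantile normalization, pseudocounts of 4 and 64, no filter, a replicate block, array weights, the mean of a gene's probe sets, and each array left out in turn. The RNA quality ratios of 3′ to 5′ probe sets were 0.761 to 1.17 for Gapdh and 1.1 to 1.74 for Actb over the arrays.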

Additional observations from a re-analysis of the deposited data

Results flagged for a closer look

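In 11 of 252 groups of 4 arrays (the 41 genes in 6 strains, and the mean level of the 41 genes), 1 array stood so far from the other 3 that its gap exceeded the 95% critical value of Dixon's test. Chance gives about 1 in 20, or 13 of 252. In BALB/c, Hspa5 was high on replicate 1 (12.37, others 12.06 to 12.10), Manf low on replicate 2 (10.62, others 11.00 to 11.06) and Ddit3 low on replicate 4 (5.76, others 6.25 to 6.34). In AKR, replicate 1 was low for Dnajb11 (7.59, others 7.75 to 7.77) and Os9 (9.01, others 9.37 to 9.42), and replicate 4 was low for Canx (9.91, others 10.16 to 10.20). In FVB, Pdia3 was high on replicate 4 (10.15, others 9.87 to 9.92) and Atf6 high on replicate 3 (7.59, others 7.28 to 7.32). Hyou1 was high on SWR replicate 4 (9.42, others 9.01 to 9.07), the array with a skeletal muscle score of 1.53. In C57BL/6, Ssr3 was high on replicate 3 (10.02, others 9.85 to 9.87) and Atf4 low on replicate 1 (7.87, others 8.40 to 8.48). The call of Manf in BALB/c held in all alternatives, and that of Atf4 in C57BL/6 was lost without replicate 1 (adjusted p = 0.28 by limma).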

How the results depend on the processing

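The number of genes called among strains was 31, and it was 30 to 34 over the 8 alternatives with all arrays and 29 to 33 with 1 array left out. With 1 array left out, the higher and lower counts were 0 to 4 and 2 to 3 in AKR, 2 to 5 and 0 to 1 in SWR, 0 and 14 to 21 in 129X1, 0 to 1 and 3 to 7 in FVB, 15 to 20 and 3 to 4 in BALB/c, and 4 to 9 and 1 to 2 in C57BL/6, and 156 to 189 combinations of gene and pair of strains were called. Array weights gave 2 genes higher in AKR, 8 higher in SWR and 1 lower in SWR. The mean of all probe sets of a gene gave 1 lower in AKR, 1 lower in SWR and 1 higher in FVB. A pseudocount of 64 gave 1 lower in SWR and 2 higher in FVB, a pseudocount of 4 and no filter each gave 1 lower in C57BL/6, and no rescaling gave 6 lower in BALB/c. Over these 8 alternatives the count lower in 129X1 was 14 to 21 and the count higher in BALB/c 14 to 20. With the replicate number as a block, which is no pairing by the labels, 31 genes were called among strains, 20 were lower in 129X1, 19 higher in BALB/c and 169 combinations were called against 184. With strain means removed, arrays of different strains with one number had a mean correlation of 0.00532 (60 pairs, -0.21 to 0.15), and for 3 of the 24 arrays the closest array of another strain carried the same number. Of the 71 calls of a gene in a strain, 38 were lost under at least 1 alternative and 32 with at least 1 array left out. Differences above 0 in BALB/c turned below 0 with the mean of probe sets for Sec61a1 (-0.06, adjusted p = 0.58 by limma) and Os9 (-0.04, adjusted p = 0.86). The cause of these changes was not tested.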
